A study of Mus musculus with 46 samples.

Results

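High-fat diet was compared with chow in livers of fasted control mice, using 11 of the 46 libraries of the series: 5 livers after high-fat diet and 6 after chow, with the same strain, sex, genotype label and fast. The series itself asked how loss of Plvap from hepatic stellate cells changes the fasted or refed liver, and bulk RNA sequencing gave 1 library of read counts per liver. The chow livers came from male mice on normal chow killed after a 12 h overnight fast. The high-fat livers came from male mice that ate a high-fat diet and drank normal water for 6 weeks before a 12 h fast. A further control group of 5 livers received a western diet with fructose in the drinking water for 6 weeks and the same fast, and is used here for values side by side. Strain C57BL/6JBomTac and the line Plvaptm1.1Salm-Tg(Lrat-cre)1Rshw are given for these mice, and the controls are littermates labelled Plvap Control. Which floxed alleles or transgene the controls carry is not stated further. In the knockouts, Cre is driven by the Lrat promoter, active in hepatic stellate cells, and 5 chow and 5 high-fat knockout livers repeat the diet comparison in other animals. Each liver is named below by the letter its label carries, chow A to F and high-fat A to E. The tissue was snap-frozen liver. The labels count replicates without saying in words that each is a separate animal, so p-values measure the spread between these samples. The age of the mice, the composition of the diets and the time of day at death are not stated in the sources used here.

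The chow livers stand in 1 deposited table and the high-fat livers in another, so that diet and table cannot be told apart in any comparison with chow. High-fat and western livers share a table, and their comparison does not have this limit. Values are CPM, read counts divided by the library total scaled by TMM and brought to a common size, and log2 fold changes are high-fat minus chow with their SE unless said otherwise. A gene is called where the edgeR quasi-likelihood test over 13807 genes gives an adjusted p (Benjamini-Hochberg) under 0.05. Genes are described by level within a gene and not compared with each other, since CPM is not corrected for length. In bulk tissue, fewer cells of a type and less RNA per cell cannot be told apart.

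The fasted liver lives on fat and amino acids. Fatty acids reach it from adipose tissue and are oxidised in mitochondria and peroxisomes under the receptor PPARA, which yields ketone bodies, while lactate, glycerol and amino acids are turned into glucose and the nitrogen is discharged through the urea cycle. Glucagon and glucocorticoids drive these programmes and insulin restrains them. A fat-rich diet supplies fatty acids from outside. It is known for storage of triglyceride in hepatocytes, stress of the endoplasmic reticulum and altered rhythms of the clock.

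Library totals ran from 13396881 to 17327759 counts on chow and from 6656342 (liver D) to 21570506 (liver B) on high-fat diet. The share of mitochondrially encoded counts (6.01% and 5.70% on average, exact two-sided permutation p 0.312), the share of ribosomal protein counts (p 0.97), the share of the 20 most abundant genes (p 0.829) and the number of genes with a count (p 0.989) did not differ beyond the spread between livers in exact permutation tests, whose smallest possible p is 0.00216. On the first principal component of the 11 livers (43.9% of the variance) the chow livers lay between -16.5 and -7.09 and the high-fat livers between 12.2 and 20.4. On the second (21.5%), chow A to C and high-fat E lay at 11.5 or above and the other livers at -3.84 or below. Summed levels of the fixed cell type markers lay in overlapping ranges for Kupffer cells (985 to 1453 CPM on chow and 1148 to 1756 on high-fat diet), stellate cells (482 to 611 and 457 to 551), endothelium (601 to 688 and 664 to 745), lymphocytes and neutrophils (40.3 to 61.5 and 30.3 to 48.1) and cholangiocytes (17.2 to 25.0 and 13.1 to 23.1). The sum of the 10 hepatocyte identity genes lay apart, at 58199 to 70160 CPM on chow and 44573 to 51456 on high-fat diet. Of these 10, 4 were called lower (Cyp3a11, Ass1, Cps1 and Tat, described below) and 6 were not called. Cyp3a11 averaged 4798 CPM on chow and 342 on high-fat diet. The median sum of the 10 was 65680 and 50638 CPM, a larger difference, to which genes that were not called also add. Whether the share of hepatocytes differed was not tested. Of 6 pancreas markers, 4 had no count in any of the 11 libraries.

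Of the 13807 genes tested, 1306 were called between high-fat diet and chow (9.46%), 627 higher (4.54%) and 679 lower (4.92%). The counts of called list members given below stand beside these shares, and a count near them is not a result about the list. The median log2 fold change over all tested genes was 0.0012. A called change of at least 2-fold was seen for 164 genes upwards and 118 downwards. The livers of the groups did not overlap for 1029 of the 13807 tested genes (7.45%), and for 53.9% of the 627 higher and 62.3% of the 679 lower genes. Without high-fat liver C the call count was 711, and without high-fat liver D it was 809. Plvap lay at 27.5 ± 4.65 CPM on chow (SD, n = 6) and 28.3 ± 3.58 on high-fat diet (n = 5), log2 fold change 0.037 ± 0.16, adjusted p 0.918.

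The largest rises were in a mixed set of secreted, metabolic and clock genes. Prok1, which encodes a secreted ligand of prokineticin receptors, lay at 0.205, 0.799 and 1.601 CPM (lowest, median and highest chow liver) and at 4.68, 6.45, 9.001, 11.3 and 4.90 in high-fat livers A to E. Every high-fat liver was above every chow liver (log2 fold change 3.06 ± 0.35, adjusted p 2.04e-06). Hsd3b5, a steroid reductase that is higher in male than in female mouse liver, lay at 29.1, 68.1 and 146 CPM on chow and at 441, 463, 482, 514 and 524 on high-fat diet. The high-fat livers lay close together there, all above the chow range (log2 fold change 2.68 ± 0.42, adjusted p 0.000362). Aacs, the cytosolic enzyme that activates acetoacetate for lipid synthesis, ran from 4.09 to 12.9 CPM on chow and from 19.1 to 63.4 on high-fat diet (log2 fold change 2.49 ± 0.57). Gbp11, of the guanylate-binding protein family, reached 53.6 and 38.7 CPM in high-fat A and E, and 8.95 to 12.8 in B, C and D, against 2.74 to 6.21 on chow. Its call was lost without high-fat liver A (log2 fold change 2.49 ± 0.63 with all livers).

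Chac1, which degrades glutathione and is a target of the stress factor ATF4, rose by 2.28 ± 0.50, Nrep by 2.26 ± 0.52 and the carboxylesterase Ces4a by 2.18 ± 0.46 on the log2 scale. Dbp, Per3 and Per2 complete the set with the clock genes described further on. The remaining members of the 12 largest rises lie close together on chromosome 17. C4a, a copy of complement component C4 (GRCm39 chromosome 17, 35028069 to 35042440), lay at 4.66, 7.71 and 10.9 CPM on chow and at 23.5, 19.8, 41.4, 42.9 and 22.8 on high-fat diet (log2 fold change 1.93 ± 0.20, adjusted p 4.14e-07). Cyp21a2-ps, a pseudogene of the steroid 21-hydroxylase gene on the same chromosome (34938787 to 34941226), lay at 0.817, 1.65 and 3.17 and at 9.43, 9.61, 8.93, 9.09 and 3.38 CPM. In liver E the pseudogene was low against A to D, while C4a was not. Both belong to a duplicated locus, so how reads were shared with the near-identical copies is uncertain.

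The 12 largest falls were a mixed set as well. Cyp3a11, the main drug-oxidising cytochrome of the mouse CYP3A family (GRCm39 chromosome 5, 145791236 to 145816774), lay at 2696, 5260.4 and 5988 CPM on chow and at 39.8, 239.9, 399, 475 and 557 on high-fat diet. The highest high-fat liver was far below the lowest chow liver, and liver A was lowest of all (log2 fold change -3.81 ± 0.56, adjusted p 0.000162). Gadd45g, a growth arrest and stress gene, fell from a chow range of 81.2 to 151 to 7.13 to 15.1 CPM (-3.35 ± 0.58). Etnppl, which breaks down phosphoethanolamine, fell from 132 to 294 to 14.4 to 47.5 CPM (-2.90 ± 0.41). Nipal1, a magnesium transporter, fell from 4.33 to 21.95 to 0.169 to 1.17 CPM (-4.52 ± 0.95). Of the other large falls, Slc16a5, a monocarboxylate transporter, fell by 2.42, the tubulin Tuba8 fell by 2.29 and Cdkn1a, the cell cycle inhibitor p21, fell by 2.42 on the log2 scale. Ddit4, an inhibitor of mTORC1, fell by 2.50, and its call was lost in 9 of 21 alternative analyses. Cdkn1a lost its call without chow liver F.

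**Figure D1:**
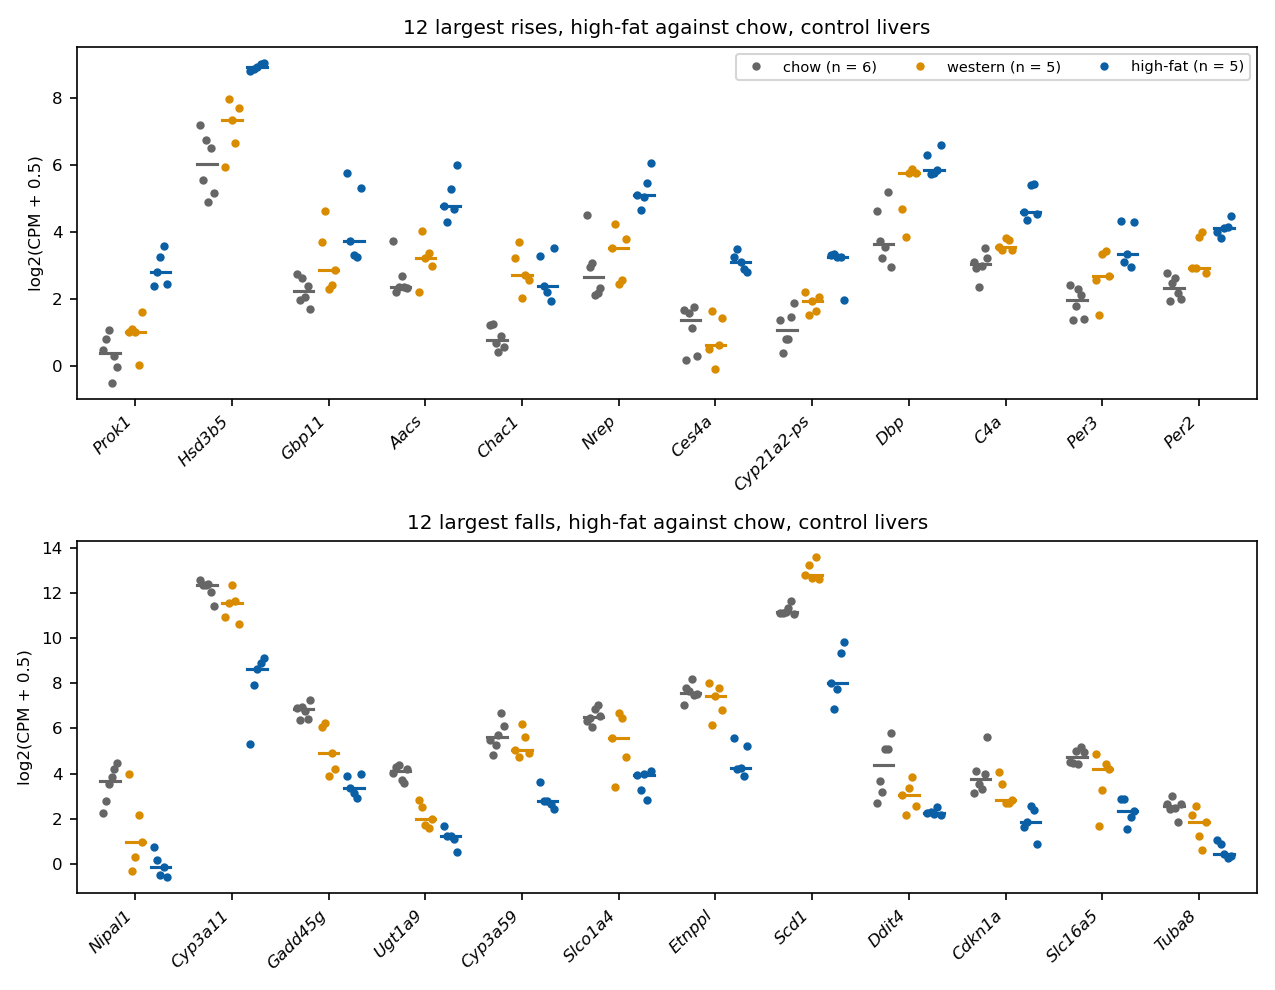
Expression of the 12 genes with the largest rises (top) and the 12 with the largest falls (bottom) between high-fat diet and chow, as log2(CPM + 0.5) per liver for chow (n = 6), western (n = 5) and high-fat (n = 5) control livers, with short lines at group medians. In all 24 genes no high-fat liver overlaps a chow liver, which is a condition of their choice, and Scd1 is highest in the western livers.

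Many genes of nitrogen disposal fell on high-fat diet. Of 27 tested genes of the urea cycle and amino acid breakdown, 16 fell and 0 rose, with a median log2 fold change of -0.69 against 0.0012 over all genes. The list held 4 of the 5 cycle enzymes among the falls. Cps1, which feeds ammonia into the cycle, lay at 2659.8, 3338 and 4298 CPM on chow and at 2617, 2405, 1608, 1161 and 1787 on high-fat diet. Livers C, D and E were lowest (log2 fold change -0.82 ± 0.22, adjusted p 0.017). Ass1, the argininosuccinate synthase, fell from 1162 to 1929 to 622 to 994 CPM (-0.97 ± 0.20), with no overlap. Asl, which cleaves argininosuccinate, lay at 624.7, 1042 and 1165 CPM on chow and at 459, 295, 219, 211 and 246 on high-fat diet (log2 fold change -1.74 ± 0.28, adjusted p 0.000409). Liver A was the nearest to chow. Arg1, the arginase that releases urea, fell from 1904 to 3311 to 1071 to 1423 CPM (-1.05 ± 0.22). Otc, the mitochondrial step between Cps1 and Ass1, lay at 479 to 612 CPM on chow and 477 to 589 on high-fat diet, log2 fold change 0.017 ± 0.11, adjusted p 0.948. The ornithine carrier Slc25a15 fell by 0.69 ± 0.16.

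Enzymes that open amino acid breakdown fell in the same livers. Sdsl, a serine dehydratase, lay at 26.8, 39.7 and 57.6 CPM on chow and at 14.7, 16.4, 12.7, 12.7 and 14.6 on high-fat diet (log2 fold change -1.50 ± 0.24, adjusted p 0.000388). The 5 high-fat livers were close together and below all chow livers. Hal, the first step of histidine breakdown, fell by 1.19 ± 0.23 and Gls2, the liver glutaminase, fell by 0.88 ± 0.15. Cth, which makes cysteine from cystathionine, fell from 803 to 2255 to 323 to 723 CPM (-1.63 ± 0.35). Tdo2, the tryptophan dioxygenase, and Agxt, which detoxifies glyoxylate, fell by 0.69 and 0.75. The count of lower members was between 11 (without high-fat liver D) and 17 (without chow liver A) when each liver was left out. Cps1 lost its call without high-fat liver C or D. Arg1, Otc, Slc25a15, Cth, Tdo2 and Agxt were named after their values were seen.

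Genes of glucose output mostly fell where called. Of 15 tested members 8 fell and 1 rose, with a median log2 fold change of -0.79. The 8 include Igfbp1, an IGF-binding protein placed on this list and described below. Pck1, the cytosolic entry enzyme of gluconeogenesis, lay at 2971, 3353 and 3886 CPM on chow and at 2557, 2069.9, 1620.4, 1480.1 and 1423 on high-fat diet, with no overlap (log2 fold change -0.89 ± 0.19, adjusted p 0.003). Fbp1, the fructose bisphosphatase, fell by 0.67 ± 0.12. Got1, the cytosolic aspartate transaminase, lay at 331, 468 and 523 CPM on chow and at 262, 229, 102, 65.2 and 106 on high-fat diet (log2 fold change -1.54 ± 0.35, adjusted p 0.00715). Livers A and B kept the higher values of that group. Gpt2, the mitochondrial alanine transaminase, fell by 0.79 ± 0.20. G6pc, which releases free glucose, overlapped between groups (238 to 549 CPM on chow and 115 to 316 on high-fat diet, log2 fold change -1.18 ± 0.36, adjusted p 0.0383), and its call was lost in 11 of 21 alternatives. It was named after its values were seen. The list held 4 lower members without high-fat liver C, 4 without D, 5 without E, 5 without chow liver D and 5 without chow liver F.

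Of 16 tested genes of glycolysis and fructolysis 2 rose and 3 fell, beside 4.54% higher and 4.92% lower over all tested genes. Pfkfb3, which makes the activator of phosphofructokinase, rose by 1.23 ± 0.35 with overlapping groups, and lost its call without chow liver D or E or high-fat liver E. Igfbp1, an IGF-binding protein that insulin represses and fasting raises, lay at 37.0, 237 and 547 CPM on chow and at 88.9, 48.1, 28.0, 17.9 and 20.7 on high-fat diet. High-fat livers C, D and E were below every chow liver, while A and B lay inside the chow range (log2 fold change -2.75 ± 0.71, adjusted p 0.0163). The Igfbp1 call was lost without high-fat liver C or D. Among 16 insulin signalling genes 2 rose and 2 fell. Pik3r1, the regulatory subunit of PI3 kinase, rose from 26.3 to 63.1 to 63.9 to 81.2 CPM (0.89 ± 0.20), and Trib3, a pseudokinase that binds AKT, fell from 10.98 to 22.6 to 6.29 to 7.87 CPM (-1.20 ± 0.29).

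Of 12 genes that glucocorticoids induce, 7 fell and 0 rose (median log2 fold change -1.01). Besides Gadd45g and Pck1, Dusp1, a MAP kinase phosphatase, fell by 1.49 ± 0.30. Tat, the tyrosine transaminase, lay at 1578 ± 705 CPM on chow (SD, n = 6) and 607 ± 84.1 on high-fat diet (n = 5), log2 fold change -1.38 ± 0.40, adjusted p 0.0314. The Tat livers did not overlap, and its call was still lost in 8 of 21 alternatives, among them without chow liver D or F or high-fat liver B, C, D or E. The lower count of the list was 3 without chow liver D or F or high-fat liver C, D or E, 4 without high-fat liver B, and 8 at most. Mt1, a metallothionein that glucocorticoids and zinc induce, lay at 95.1, 399 and 842 CPM on chow and 119.9, 132, 136, 71.6 and 18.8 on high-fat diet (log2 fold change -2.09 ± 0.62, adjusted p 0.0359) and was named after its values were seen; its call was lost in 11 of 21 alternatives.

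Clock genes moved in both directions. Of 23 tested members 7 rose and 3 fell. The core activator Arntl (BMAL1) lay at 7.94, 12.5 and 17.5 CPM on chow and at 3.98, 4.45, 5.71, 4.47 and 2.96 on high-fat diet, with no overlap (log2 fold change -1.54 ± 0.30, adjusted p 0.00179). Rora, which activates Arntl, fell by 0.42 ± 0.10. Per2, a repressor of the loop, lay at 3.33, 4.51 and 6.40 CPM on chow and at 15.6, 13.5, 16.9, 17.2 and 21.6 on high-fat diet (log2 fold change 1.87 ± 0.25, adjusted p 3.35e-05). All 5 high-fat livers exceeded every chow liver. Dbp and Tef, output factors of the PAR bZIP family, rose by 2.01 ± 0.52 and 0.82 ± 0.18, and Per3 by 1.92 ± 0.44. Nr1d1 (REV-ERB alpha), the repressor of Arntl, rose from 19.8 to 60.6 to 62.6 to 85.3 CPM (1.08 ± 0.28). Tspan4, a tetraspanin placed on this list, rose by 0.83 ± 0.17. The list count ran from 6 to 7 higher and from 2 to 3 lower when each liver was left out. Time of day at death is not given for either table, and whether it was the same was not tested. Rora and Nr1d1 were named after their values were seen.

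Genes of protein folding in the endoplasmic reticulum rose in part of the high-fat livers. When unfolded proteins build up there, the sensors IRE1, PERK and ATF6 raise chaperones, disulphide isomerases and degradation factors through XBP1, ATF4 and ATF6. Of 24 tested genes of this response 11 rose and 1 fell (median log2 fold change 0.75). Of 20 heat shock genes 10 rose and 0 fell (median 0.63). These 4 promoters are shown first because their genes lie in these lists and carry the elements named for these responses. The letters are RefSeq, mouse GRCm38.p6, 300 bases each that end shortly after the annotated start, written along the gene. Capitals mark the ERSE (CCAAT, any 9 bases, CCACG, on either strand) in the first 3, and in the last a heat shock element of 3 alternating GAA and TTC blocks 2 bases apart.

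Creld2, chr15:88819396-88819695, + strand: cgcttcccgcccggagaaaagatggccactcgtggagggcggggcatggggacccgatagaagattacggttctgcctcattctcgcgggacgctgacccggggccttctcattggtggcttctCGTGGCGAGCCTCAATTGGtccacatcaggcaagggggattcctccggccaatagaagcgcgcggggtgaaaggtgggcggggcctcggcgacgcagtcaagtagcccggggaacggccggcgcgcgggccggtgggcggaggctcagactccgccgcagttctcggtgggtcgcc
Hspa5, chr2:34771840-34772139, + strand: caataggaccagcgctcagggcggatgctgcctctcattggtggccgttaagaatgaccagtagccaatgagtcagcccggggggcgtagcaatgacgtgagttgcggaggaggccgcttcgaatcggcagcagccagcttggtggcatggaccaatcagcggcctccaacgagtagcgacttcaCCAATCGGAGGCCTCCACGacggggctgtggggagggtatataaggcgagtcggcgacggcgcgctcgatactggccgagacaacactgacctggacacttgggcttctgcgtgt
Hsp90b1, chr10:86705395-86705694, - strand: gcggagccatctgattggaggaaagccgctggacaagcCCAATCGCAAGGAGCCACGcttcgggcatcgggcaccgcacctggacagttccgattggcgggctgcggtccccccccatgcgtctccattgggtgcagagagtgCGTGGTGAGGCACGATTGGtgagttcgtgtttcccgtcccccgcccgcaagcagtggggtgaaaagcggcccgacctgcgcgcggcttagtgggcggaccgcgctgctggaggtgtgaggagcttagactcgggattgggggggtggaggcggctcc
Hsph1, chr5:149636266-149636565, - strand: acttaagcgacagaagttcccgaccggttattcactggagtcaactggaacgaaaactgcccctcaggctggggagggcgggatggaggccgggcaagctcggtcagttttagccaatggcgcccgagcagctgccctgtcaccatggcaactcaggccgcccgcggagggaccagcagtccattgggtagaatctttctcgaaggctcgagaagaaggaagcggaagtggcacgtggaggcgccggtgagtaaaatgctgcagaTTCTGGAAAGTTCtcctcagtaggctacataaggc

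The ERSE was found in 39 of 32851 RefSeq promoters of this length (0.119%) and in 6 of the 22 members of the list with a promoter: Calr, Creld2, Dnajc3, Hsp90b1, Hspa5 and Pdia6. Of the 10 higher members with a promoter, 2 held it. Hsp90b1 held 2 copies, 1 on each strand. A shorter form, ERSE-II (ATTGG, any base, CCACG), stood in 12 promoters (0.0365%), among them Dnajb11 and Herpud1. The heat shock element stood in 198 promoters (0.603%) and in 4 of the 15 heat shock genes with a promoter, Chordc1, Hspd1, Hspe1 and Hsph1. In Hsph1 it lies after the start. A match is a string of letters in this window and was not tested as a binding site.

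Creld2, a chaperone-like disulphide isomerase of the endoplasmic reticulum and 1 of the genes with an ERSE above, lay at 23.3, 36.1 and 65.5 CPM on chow and at 50.2, 111, 159, 380.7 and 109 on high-fat diet. Liver D was highest, liver A was inside the chow range, and B, C and E were above it (log2 fold change 2.00 ± 0.57, adjusted p 0.0269). Hyou1, a large chaperone of the lumen, lay at 64.2, 106 and 131 CPM on chow and at 130.3, 198, 263, 509 and 199.9 on high-fat diet, with the same order of livers at both ends (log2 fold change 1.34 ± 0.40, adjusted p 0.0345). Sdf2l1 rose by 1.70 ± 0.49, the isomerase Pdia4 by 1.10 ± 0.32, Hsp90b1 (GRP94) by 0.75 ± 0.22, the co-chaperone Dnajb11 by 0.74 ± 0.22, and the degradation factors Sel1l and Edem1 by 0.66 ± 0.19 and 0.33 ± 0.10. Hspa5 (BiP), the master chaperone of this compartment, lay at 587, 821 and 1386 CPM on chow and at 1089, 1684, 1883, 3440.0 and 1583 on high-fat diet. It missed the threshold (log2 fold change 1.03 ± 0.34, adjusted p 0.0593). Derl3, a retrotranslocation factor, lay at 2.26 to 7.98 CPM on chow and at 3.74, 22.9, 26.4, 90.9 and 27.3 on high-fat diet, with liver A inside the chow range and liver D highest (log2 fold change 2.60 ± 0.72, adjusted p 0.0236).

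Among the regulators, Ddit3 (CHOP) lay at 4.89, 5.36 and 8.84 CPM on chow and at 7.48, 8.81, 24.5, 29.4 and 8.53 on high-fat diet. Livers C and D were above the chow range and A, B and E at its upper end (log2 fold change 1.41 ± 0.32, adjusted p 0.00652). Xbp1 lay at 176, 197 and 267 CPM on chow and at 345, 355, 333, 358 and 435 on high-fat diet, with liver E and not D highest (log2 fold change 0.83 ± 0.22, adjusted p 0.0174). Trib3, an ATF4 target given above, was the member that fell. Chac1, known as a target of the same factor, rose. Liver D had the fewest counts (6656342) and the highest levels of Creld2, Hyou1, Hspa5 and Derl3. Without it 3 members of the list were higher, and without high-fat liver C 4. Without chow livers B, C and E the counts were 3, 4 and 6. Without high-fat liver A, 15 were higher. Part of the calls thus rested on single livers, and a role of depth was not tested. Creld2, Hyou1, Sdf2l1, Pdia4, Hsp90b1, Dnajb11, Sel1l, Edem1 and Hspa5 were named after their values were seen.

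In the cytosol, Hsph1 (HSP105), whose promoter is printed above, lay at 26.2, 43.7 and 69.9 CPM on chow and at 109, 144, 175, 195 and 125 on high-fat diet. All high-fat livers were above the chow range (log2 fold change 1.65 ± 0.36, adjusted p 0.00554). Bag3, which hands clients of HSP70 to autophagy, lay at 21.3, 26.2 and 37.5 CPM on chow and at 42.7, 54.6, 73.4, 82.4 and 42.0 on high-fat diet (log2 fold change 1.05 ± 0.24, adjusted p 0.00741). Fkbp4 and Chordc1, co-chaperones of HSP90, rose by 0.76 ± 0.13 and 0.73 ± 0.20. The tested members of the heat shock list, not all of them cytosolic, ran from 0.11 to 1.91, so that no fitted value was below 0. The higher count of the list was 5 without high-fat liver D or chow liver B, 6 without high-fat liver E or chow liver D or F, and 14 without chow liver A.

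**Figure D2:**
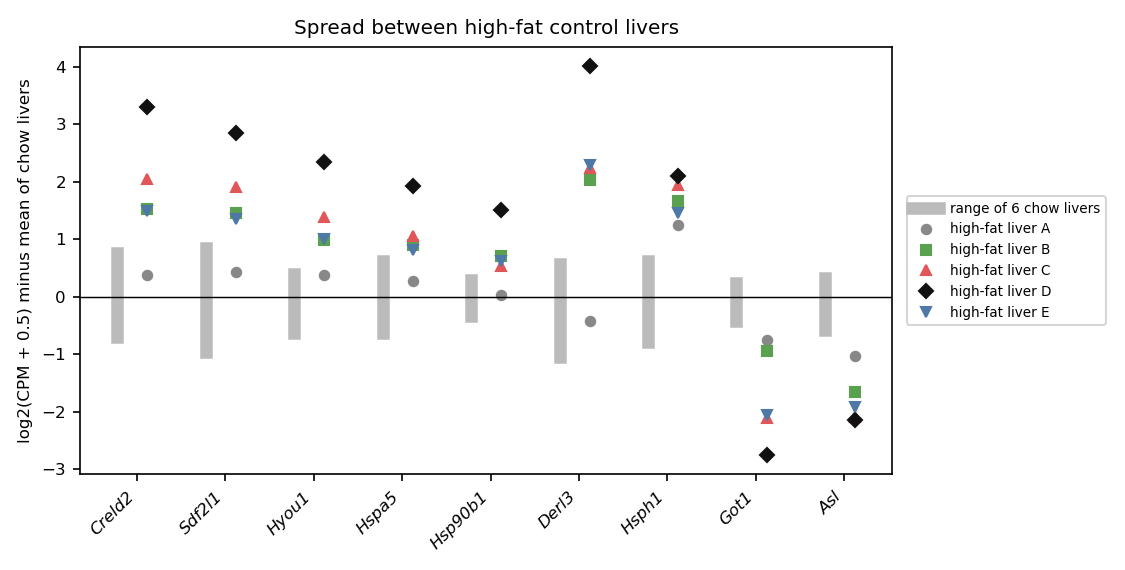
Level of 9 genes in each high-fat control liver (symbols A to E) as log2(CPM + 0.5) minus the mean of the chow livers, with the range of the 6 chow livers as a grey bar. Liver D is highest in the 6 folding genes at the left and in Hsph1, liver A is lowest there, and for Got1 and Asl liver D is lowest and liver A nearest to chow.

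Among the genes of fat metabolism, the share called varied between lists. Of 21 tested enzymes of mitochondrial beta-oxidation 0 were called at the adjusted threshold, with fitted values from -0.46 to 0.35. Cpt1a, the carnitine palmitoyltransferase at its entry, lay at 446, 494 and 551 CPM on chow and at 447, 491, 410.7, 355 and 343 on high-fat diet (log2 fold change -0.27 ± 0.12, adjusted p 0.141). Of 16 genes of fatty acid uptake and activation 0 were called. Among 7 ketogenesis genes 1 fell, Slc16a1, the monocarboxylate transporter (-0.81 ± 0.21; lost without high-fat liver E). Plin2, the coat protein of hepatocyte lipid droplets, was at 1043, 1201 and 1324 CPM on chow and 682, 1240.3, 1125, 1207 and 809.8 on high-fat diet (log2 fold change -0.24 ± 0.24, adjusted p 0.595). Cpt1a and Plin2 were named after their values were seen. Of 25 PPARA targets 4 fell and 0 rose. Cyp4a14, a fatty acid omega-hydroxylase, lay at 5025, 6848 and 7640.1 CPM on chow and at 2053, 3367, 1955, 879 and 1359.8 on high-fat diet, with no overlap (log2 fold change -1.78 ± 0.36, adjusted p 0.00241). Its relative Cyp4a10 fell by 1.14 ± 0.29, though reads of these near-identical paralogs may be shared. Pdk4, which blocks entry of pyruvate into oxidation, fell from 11.01 to 34.9 to 4.18 to 8.11 CPM (-1.92 ± 0.37). Retsat, a retinol saturase, completes the 4, with its call lost in 8 of 21 alternatives.

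In lipogenesis 5 of 22 members fell and 2 rose, counts that held when each liver was left out. Scd1, the stearoyl-CoA desaturase that makes monounsaturated fat, lay at 2160.5, 2261 and 3186 CPM on chow and at 260.0, 114, 212, 643 and 912 on high-fat diet. No high-fat liver reached the chow range (log2 fold change -2.51 ± 0.59, adjusted p 0.00851). Elovl5, an elongase of polyunsaturated fatty acids, lay at 741, 933 and 1152 CPM on chow and at 362, 556, 385, 339 and 267 on high-fat diet (log2 fold change -1.31 ± 0.17, adjusted p 1.97e-05). Acacb, the mitochondrial acetyl-CoA carboxylase, fell by 1.40 ± 0.25 and Me1, which supplies NADPH, by 1.55 ± 0.35. Aacs, given above, and Mlxipl (ChREBP), a carbohydrate-sensing factor, rose, the latter from 60.1 to 124 to 144 to 195 CPM (0.91 ± 0.18). Of 24 lipid droplet and triglyceride genes 4 fell, beside 4.92% lower over all tested genes. These were Hsd17b13, Pnpla2, Dgat1 and Agpat2, which fell by at most 0.48 on the log2 scale. The count was 1 to 4 when each liver was left out, with 2 without chow E or F or high-fat C or D and 1 without high-fat E. Hsd17b13, a droplet protein, lay at 370.1 to 425.2 and 271 to 319 CPM (log2 fold change -0.44 ± 0.10, adjusted p 0.00448). Of 27 cholesterol synthesis genes 1 fell, Hsd17b7 (-0.55 ± 0.18), and its call was lost in 13 of 21 alternatives. Of 14 sterol export genes 1 rose and 1 fell. Abca1, the cholesterol exporter that rose (0.54 ± 0.16), lost its call in 7 of 21 alternatives. Nudt7, a peroxisomal CoA hydrolase, rose from 235 to 808 to 1135 to 1326 CPM (1.44 ± 0.38) while 2 of 24 peroxisomal genes fell.

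Part of the genes of drug and toxin metabolism fell. Of 27 tested xenobiotic cytochromes and targets of the receptors CAR and PXR, 9 fell and 0 rose (median -0.41), and the count stayed between 7 and 9 when each liver was left out. Fitted values of the list ran from -3.81 to 2.90, and the highest was not called. After Cyp3a11, its relatives Cyp3a25 and Cyp3a59 fell. Cyp3a25 was at 790.1 to 1299 CPM on chow and 259 to 376.8 on high-fat diet (-1.67 ± 0.23), and Cyp3a59 at 27.8 to 103 and 4.90 to 11.9 (-2.97 ± 0.41). Ugt1a9, a glucuronosyltransferase, fell from 11.6 to 20.1 to 0.929 to 2.73 CPM (-3.13 ± 0.38). Members of the Cyp3a family are near-identical and the Ugt1a genes share exons, so the split of reads between them is uncertain. Among 24 glutathione and NRF2 genes 9 fell and 0 rose. Gstm1 fell by 0.96, Gstm4 by 0.65, Gsta2 by 1.74 and Srxn1, the sulfiredoxin, by 0.62. The count was 5 without high-fat liver C and 6 without high-fat D or E or chow D. The glutathione transferases too have close paralogs.

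For the bile acid, iron and lipoprotein lists, the share over all tested genes was 4.92% lower and 4.54% higher. In bile acid handling 4 of 22 genes fell and 0 rose. Slco1a4, an uptake transporter of organic anions, fell from 65.4 to 131 to 6.57 to 17.1 CPM (log2 fold change -2.92 ± 0.48, adjusted p 0.000552). Cyp8b1, the 12-alpha-hydroxylase that sets the share of cholic acid, lay at 629, 789 and 1135 CPM on chow and at 459.8, 400.1, 281, 296 and 177 on high-fat diet, with no overlap (log2 fold change -1.35 ± 0.22, adjusted p 0.00026). Without chow D or high-fat B, C, D or E, 2 of the 4 were called. Of 15 iron genes 4 fell and 1 rose. Ftl1 and Fth1, the ferritin chains, fell by 0.59 ± 0.10 and 0.48 ± 0.089. Tfrc, the transferrin receptor, fell from 33.9 to 74.5 to 20.5 to 25.98 CPM (-1.18 ± 0.20) and Hfe by 0.52. The groups did not overlap in any of these 4, which were named for their small p. Groups did not overlap in 62.3% of all 679 lower genes and in 7.45% of all tested genes. The iron list kept at least 4 lower members when each liver was left out. Among 23 lipoprotein genes 4 fell, Tm6sf2 (-0.95 ± 0.21), Apom (-0.51 ± 0.12), Apoa5 and Mttp, the last with its call lost in 12 of 21 alternatives. The lower count was 2 without chow B, C or D or high-fat C or D.

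Of 18 male-biased genes 3 rose, Hsd3b5, Nudt7 and Selenbp2, and of 9 tested female-biased genes 2 fell. Fitted values of the female-biased genes ran from -3.28 to 2.90, and 0 were called higher. Selenbp2, a selenium-binding protein, lay at 156, 254 and 457 CPM on chow and at 574, 593, 543, 635 and 651 on high-fat diet (log2 fold change 1.17 ± 0.19, adjusted p 0.000347). Cyp3a44, of the female-biased list, had at most 1.13 CPM on chow and 0.169 on high-fat diet, where 3 livers had no count. In the growth hormone and IGF list 2 rose and 4 fell. Igfbp2 fell by 0.86 ± 0.17 and Igfbp3 by 0.64 ± 0.17, with Igfbp1 above. Stat5b, the transcription factor of growth hormone signalling, fell by 0.37, and its call was lost in 7 of 21 alternatives. Without high-fat liver C or D the list kept 2 lower members and 0 higher ones. Of 20 pericentral genes 3 rose and 0 fell, beside 4.54% higher and 4.92% lower over all tested genes. The 3 were Gulo, the last enzyme of vitamin C synthesis (0.54 ± 0.089), Lect2 (0.62 ± 0.13) and Rgn (0.63 ± 0.15). Among 22 retinoid genes the alcohol dehydrogenases Adh4 (0.71 ± 0.16) and Adh1 (0.51 ± 0.14) rose and 3 genes fell, among them the retinol dehydrogenase Rdh16 (-0.56 ± 0.15). Of 20 immediate early genes 3 fell and 1 rose. Sik1, a kinase that cAMP signalling induces, fell from 7.39 to 25.5 to 3.38 to 5.87 CPM (-1.97 ± 0.32), Dusp1 is given above, and Maff rose by 1.15 ± 0.28.

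Of 36 interferon-response genes 11 rose and 0 fell (median 0.59). Iigp1, an interferon-induced GTPase, lay at 355, 384.4 and 405.1 CPM on chow and at 518, 511, 580.1, 556 and 551 on high-fat diet, with no overlap (log2 fold change 0.49 ± 0.11, adjusted p 0.00517). Irgm1 of the same family rose by 0.53 ± 0.12, Stat2, which carries the type I signal, by 0.45 ± 0.10 and Parp14 by 0.74 ± 0.16. The count was 7 without chow A or D or high-fat C, D or E. Of 19 lymphocyte and neutrophil markers 2 rose and 1 fell, and their summed levels overlapped between groups, as given above. Cd4 lay at 0.251 to 0.655 CPM on chow and 1.26 to 1.91 on high-fat diet (1.87 ± 0.30). Cd8a rose by 1.58 ± 0.50 and the B cell gene Cd79a gave -1.13 ± 0.37, with their calls lost in 11 of 19 and 13 of 21 alternatives. Of 21 Kupffer cell and 19 stellate cell markers 0 were called. Of 33 fibrogenesis genes 1 fell, Ccn2 (log2 fold change -1.02 ± 0.29, adjusted p 0.0278), with its call lost in 9 of 21 alternatives. In 30 endothelial genes 2 rose, Nrp1, a co-receptor of VEGF, from 24.8 to 35.8 to 52.1 to 96.1 CPM (log2 fold change 1.16 ± 0.24, adjusted p 0.0032) and Stab2, a scavenger receptor of the sinusoids (0.40 ± 0.12; lost without chow liver C or D or high-fat liver B, C or D).

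Several acute phase genes varied widely within both groups. Saa1, a serum amyloid, lay at 58.02, 46.2, 132, 8349, 2082 and 12121 CPM in chow A to F and at 2189, 3172, 3321, 1683 and 64.5 in high-fat A to E. Chow A to C and high-fat E were low and the other livers high (log2 fold change -0.86 ± 1.39, adjusted p 0.758). The sign of the Saa1 difference turned under limma-voom and under the replicate block. Lcn2, lipocalin 2, showed the same livers low, at 3.58, 3.52, 2.98, 189, 57.1 and 592 CPM on chow and 82.1, 215, 358, 148 and 3.97 on high-fat diet. The labels give no batch that sets these livers apart, and they are the livers that the second principal component sets apart. Of 30 members 3 rose and 1 fell: Saa4, the constitutive serum amyloid (1.10 ± 0.16), Steap4 (1.28 ± 0.25), Il1r1 (1.02 ± 0.33; lost in 13 of 21 alternatives) and, lower, Cebpd (-1.35 ± 0.34). Of 13 tested replication histone genes 6 rose, among them Hist1h2be, at 0.410 to 0.753 and 0.979 to 2.45 CPM. These transcripts lack a poly(A) tail, as background, and the nuclear RNAs Neat1 and Malat1 were higher in the same livers (1.13 ± 0.33 and 1.02 ± 0.32). The histone count was 3 without high-fat liver C and 4 without high-fat liver A, and Neat1 and Malat1 together kept 0 calls without chow liver B, C or D or high-fat liver B or C. Whether library preparation differed between the tables was not tested. Of 80 oxidative phosphorylation genes 10 fell, by at most 0.47 on the log2 scale, beside 4.92% lower over all tested genes. That count was 1 without high-fat liver C, 4 without high-fat D, 4 without chow E and 6 without chow D.

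The western diet livers, in the same table as the high-fat livers, show which of these differences from chow came with the other diet too. Western diet against chow called 311 genes (2.25%), 188 higher (1.36%) and 123 lower (0.891%). It shares the chow livers and the change of table with the high-fat comparison, so the values stand side by side without a test of their likeness. Without chow liver D the western count was 181. High-fat against western diet, within 1 table, called 500 genes (3.62%), 218 higher (1.58%) and 282 lower (2.04%), and shares the high-fat livers. That count was 257 without high-fat C and 243 without high-fat D. Urea cycle and amino acid genes had 0 of 27 called on western diet against chow (median -0.023) and 12 lower on high-fat against western diet. Asl was at 262 to 903 CPM on western diet, and differed by -1.19 ± 0.29 between high-fat and western diet (adjusted p 0.018). Sdsl differed by -1.37 ± 0.25 (adjusted p 0.00171) and Agxt by -1.11 ± 0.17 (adjusted p 0.000197). The unfolded protein response had 1 higher and 1 lower member on western diet against chow (median -0.28). On high-fat against western diet it had 13 higher and 1 lower. List counts of that comparison were not rerun with single livers left out. Creld2 differed by 2.35 ± 0.61 between the diets (adjusted p 0.031), Hspa5 by 1.34 ± 0.37 (adjusted p 0.0389) and Hsp90b1 by 1.02 ± 0.24 (adjusted p 0.0122). Chac1 did not differ beyond the spread between the diets (-0.16 ± 0.46) and was higher than on chow on both (2.44 ± 0.50 on western diet).

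Cyp3a11 was at 1581 to 5262 CPM on western diet, and high-fat livers differed from these by -3.13 ± 0.55 on the log2 scale (adjusted p 0.00134). Scd1 was at 6261 to 12180.0 CPM on western diet and differed by -4.28 ± 0.65 (adjusted p 0.000312). Elovl5 (-1.32 ± 0.18), Cyp4a14 (-1.82 ± 0.37) and Etnppl (-2.62 ± 0.41) were also lower on high-fat than on western diet. Sterol synthesis separated the diets from the other side. On western diet 19 of 27 genes were lower than on chow, against 1 on high-fat diet (Hsd17b7), and 19 were higher on high-fat than on western diet. Idi1, an isomerase of the mevalonate route, was at 1.63 to 5.68 CPM on chow, 0 to 0.371 on western and 2.11 to 7.57 on high-fat diet (high-fat against western 4.73 ± 0.73). Sqle, squalene epoxidase, was at 13.8 to 62.8, 2.24 to 4.46 and 11.8 to 46.6 CPM in that order. Lepr, the leptin receptor, was lower on high-fat than on western diet (-3.20 ± 0.44, adjusted p 0.000109), as were Apoa4 (-2.57 ± 0.32) and Adam11 (-3.10 ± 0.26). Interferon genes were called on both diets against chow, 11 on high-fat and 19 on western diet, and 0 were higher and 1 lower between high-fat and western diet. Per2 was higher than on chow on both (1.10 ± 0.26 on western diet, adjusted p 0.0186), and Arntl gave -0.95 ± 0.29 on western diet (adjusted p 0.0798). Of the clock genes 1 was higher and 0 were lower between high-fat and western diet. The replication histones had a median of 0.75 on western diet, with 0 called.

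**Figure D3:**
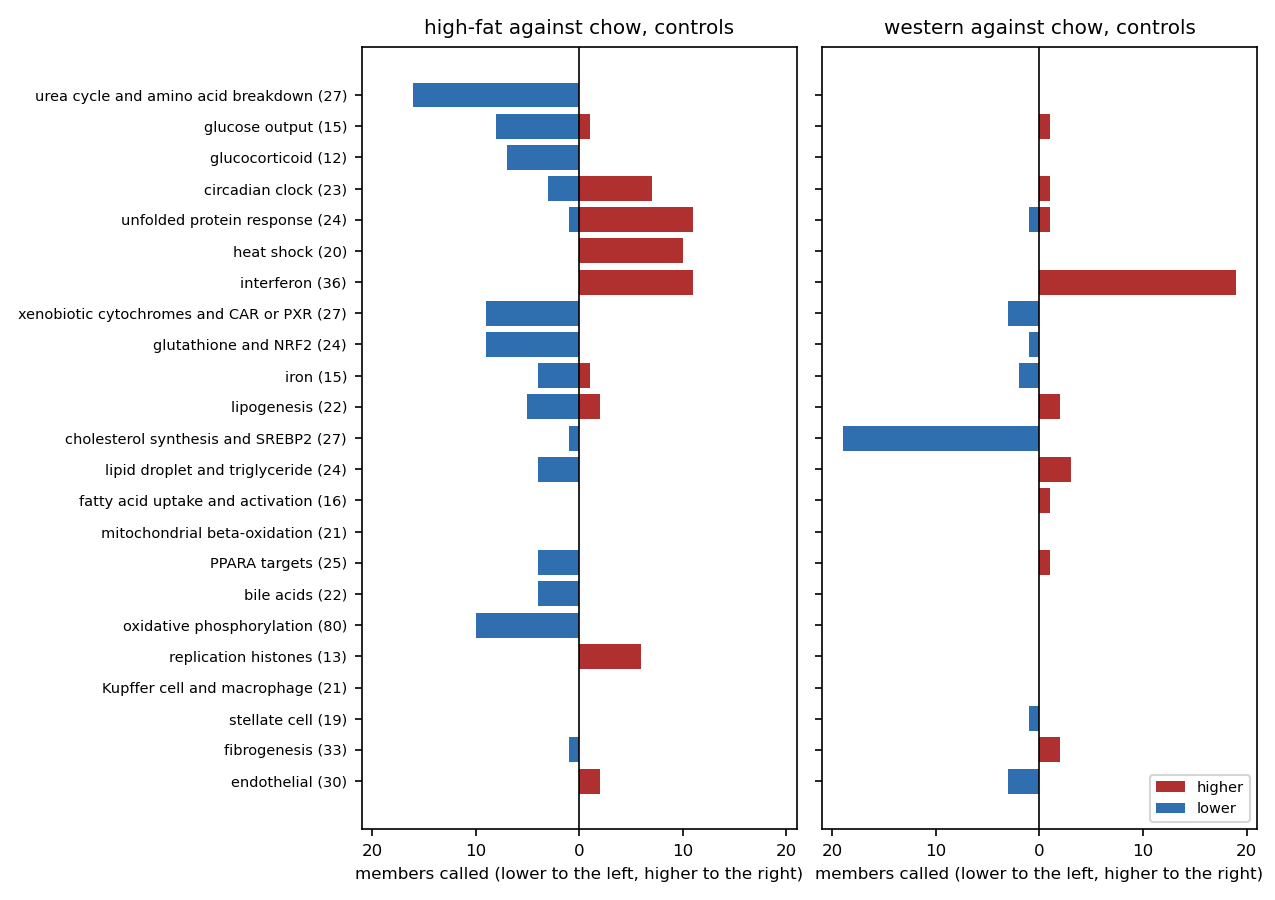
Members of 23 gene lists called lower (bars to the left) or higher (bars to the right) against chow in control livers on high-fat diet (left panel) and western diet (right panel), with the number of tested members in brackets. The urea cycle list has 16 lower members on high-fat diet and 0 on western diet, the cholesterol synthesis list 1 and 19, and both comparisons share the chow livers.

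**Figure D4:**
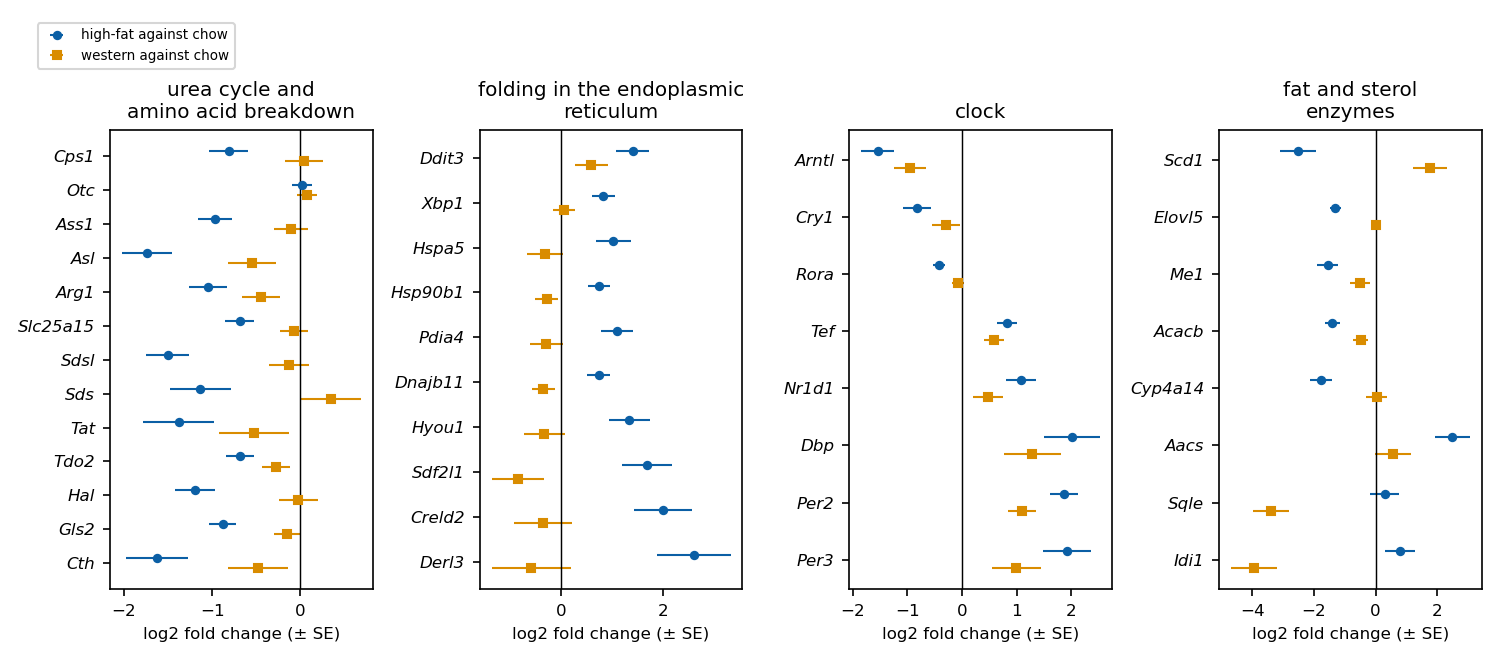
Log2 fold change against chow (± SE from the edgeR fit) for named genes of 4 groups, for high-fat (circles) and western (squares) control livers. Scd1 stands at -2.51 on high-fat and 1.77 on western diet and Creld2 at 2.00 and -0.35, while Per2 is above 0 on both.

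The same diet comparison in the Plvap knockout livers, 5 on high-fat diet against 5 on chow, called 2434 genes (17.6%), 1138 higher (8.24%) and 1296 lower (9.39%). It uses other livers and carries the same change of table, and the count was 1433 without chow knockout liver D. Of the 627 genes higher in controls, 589 had the same sign in knockouts, 309 were called higher there and 0 lower. Of the 679 lower genes, 635 had the same sign, 338 were called lower and 1 higher. The median change of the higher genes was 0.63 in controls and 0.46 in knockouts, and of the lower genes -0.51 and -0.38, against 0.0066 over all genes in knockouts. The genes were chosen by their change in the controls, so the control medians are a description. Urea cycle and amino acid genes had 17 of 27 lower in knockouts (Asl -1.28 ± 0.29, Sdsl -1.24 ± 0.25), xenobiotic genes 9 of 27 (Cyp3a11 -3.79 ± 0.57), glucocorticoid-induced genes 7 of 12 and clock genes 8 higher and 4 lower of 23 (Arntl -1.63 ± 0.32). Hsd3b5 rose by 2.43 ± 0.45 and Prok1 by 2.60 ± 0.37 there. The unfolded protein response had 2 higher and 1 lower of 24 in knockouts, with a median of 0.027 against 0.75 in controls, and the heat shock list 3 of 20. Creld2 gave 0.31 ± 0.58 (adjusted p 0.761) and Bag3 -0.10 ± 0.26 (adjusted p 0.836) in knockouts.

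Whether the diet effect differed between the genotypes was tested with the interaction term, and 0 of 13807 genes were called (0%). An unadjusted p under 0.05 was reached by 1244 genes, which is more than that share of the tested genes. DESeq2 called 18 and limma-voom 2. The test thus gives no gene list on which controls and knockouts differ, the chaperones included (Creld2 -1.69 ± 0.81, adjusted p 0.551). It does not show that the 2 genotypes responded alike. The 5 genes with the smallest p were Gm19572, Rufy4, Dock4, Bcl9 and Dact2. Gm19572, a predicted gene, fell from 3.47 to 6.601 to 0.357 to 0.756 CPM in controls (-3.16 ± 0.35) and gave -0.64 ± 0.31 in knockouts (interaction adjusted p 0.114). Dact2, an inhibitor of Wnt and TGF-beta signalling, fell by 0.66 in controls and gave 0.42 ± 0.17 in knockouts (interaction adjusted p 0.145).

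**Figure D5:**
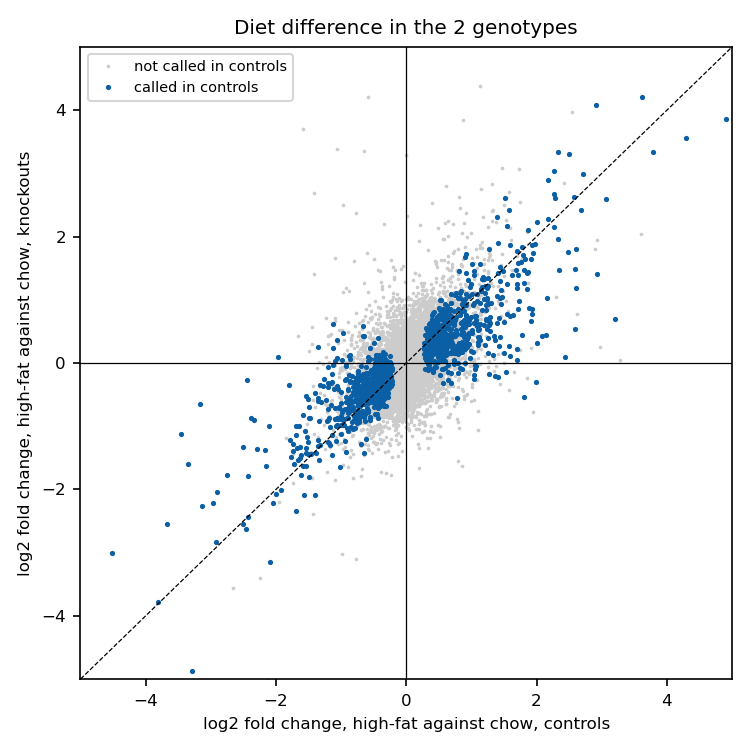
Log2 fold change of high-fat diet against chow in knockouts (vertical) and in controls (horizontal) for the tested genes, with genes called in controls in blue and a dashed line at equal change, and 2 genes outside the axes. Of 1306 called genes, 589 of 627 higher and 635 of 679 lower ones have the same sign in knockouts.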

How the data were processed

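RNA of snap-frozen mouse livers was purified with a Monarch Total RNA Miniprep kit and sequenced from NEBNext Ultra RNA libraries, per the labels' protocols. The submitters' processing notes name STAR 2.7.8a, featureCounts 2.0, FastQC 0.11.9, MultiQC 1.10.1 and the build GRCm39. Annotation release, counting strand and library strandedness are not given in the sources used here, so reads of overlapping antisense genes could not be told apart.

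Per the file headers, the deposited tables give raw read counts for each Ensembl gene and library without normalization, beside the exon length of the gene. The 2 tables of 12 h fasted livers were joined by gene identifier. Symbols from a mouse annotation on an earlier build cover 52083 of 55416 genes (94%), and 0.552% of counts fall on genes without one. Gene positions are the deposited ones. No pair among 25 replicate pairs was identical.

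Counts of 30 livers in 6 groups (chow, western, high-fat, each control and knockout) were fitted with edgeR 4.0.16 in R 4.3.3, using TMM, filterByExpr (minimum count 10, minimum total 15) and the robust quasi-likelihood F-test, which left 13807 genes. The refed livers were left out because some genes are at 0 throughout their table. On simulated counts of 13637 genes, high-fat against chow in controls recovered 37.3% of genes changed 1.5-fold, 76.1% changed 2-fold and 98.5% changed 4-fold, with 5 false calls. The changed genes numbered 67, 67 and 65 at these folds, fewer than the 1306 called in the data. Recovery may differ where more genes change.

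The comparison and the gene lists were chosen with earlier results of these data known. Named genes are Plvap, the 12 largest rises and falls (called, no overlap between groups, an established symbol, 5 CPM or more in the higher group), up to 4 called members per list by smallest p, the 6 largest differences each way from western diet, the 6 most variable genes among high-fat controls, and the 5 smallest p for the difference between genotypes. The patterns for oxidative phosphorylation, ribosomal, mitochondrial and histone genes were set after symbols were seen. Other named genes are marked in the text, and a few genes that the rule would name are not reported here. Technical measures were tested by exact permutation over 462 assignments.

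Alternative analyses used DESeq2 1.42.0 or limma-voom (limma 3.58.1), size factors of DESeq2 inside edgeR, no filter or 1 CPM in 5 libraries, only the compared groups, 8 groups with the refed livers, the replicate letter as a block, removal of mitochondrially encoded genes or of a trend with exon length, and each library left out. List counts under these alternatives were added after seeing the data.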

Additional observations from a re-analysis of the deposited data

Results flagged for a closer look

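Dixon's criterion was applied to 376 groups of livers, for named genes and technical measures. In 22 of them a value lay far from the others of its group (5.85%). Chance flags about 1 in 20 groups of values that were not chosen for their spread. Saa1, Saa2, Orm2 and Moxd1 were named for their large spread among the high-fat livers, so their flags cannot be set against that rate. No explanation was tested for any of the 22. High-fat liver E was low in 3 acute phase genes, with Saa1 at 64.5 CPM in high-fat E against 1683 to 3321 in the others, Saa2 at 20.6 CPM in high-fat E against 1196 to 2768 in the others and Orm2 at 2.62 CPM in high-fat E against 40.5 to 61.7 in the others. The same liver had Moxd1 at 1.77 CPM in high-fat E against 59.3 to 189.9 in the others, Cyp21a2-ps at 3.38 CPM in high-fat E against 8.93 to 9.61 in the others, Sqle at 11.8 CPM in high-fat E against 41.3 to 46.6 in the others and Xbp1 at 435 CPM in high-fat E against 333 to 358 in the others. High-fat liver A stood out with Fst at 4.52 CPM in high-fat A against 0.676 to 1.00 in the others and Stat5b at 39.2 CPM in high-fat A against 29.9 to 32.2 in the others. Fst encodes follistatin, an activin-binding protein. In the other high-fat livers, the criterion marked Agpat2 at 176 CPM in high-fat D against 136 to 147 in the others and Serpinc1 at 1687 CPM in high-fat C against 1870.0 to 1911 in the others. Chow liver A was high in Aacs at 12.9 CPM in chow A against 4.09 to 5.95 in the others, Pik3r1 at 63.1 CPM in chow A against 26.3 to 35.8 in the others and Xbp1 at 267 CPM in chow A against 176 to 204 in the others. Chow liver D was marked for Alas2 at 46.3 CPM in chow D against 56.1 to 60.1 in the others, Stab2 at 24.0 CPM in chow D against 28.0 to 30.1 in the others, Otc at 612 CPM in chow D against 479 to 520.1 in the others and Hsd17b7 at 107 CPM in chow D against 63.8 to 72.5 in the others. Chow liver E had Dusp1 at 12.8 CPM in chow E against 32.9 to 47.9 in the others and Foxo3 at 41.3 CPM in chow E against 30.4 to 33.3 in the others. In the remaining chow livers there were Nrp1 at 24.8 CPM in chow B against 33.3 to 35.8 in the others and Ddit3 at 8.84 CPM in chow F against 4.89 to 5.47 in the others.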

How the results depend on the processing

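Of 160 called named genes 0 changed sign under the alternatives that gave a value. Of the 183 named genes 7 did, and none of these was called. Under limma-voom and the replicate block, Saa1 gave 1.63 and 0.25, Saa2 2.22 and 0.19, and Orm2 0.49 and 0.22 on the log2 scale. Without a filter on low counts Otc gave -0.0015. With each library left out, Otc ran from -0.017 to 0.074, Plvap from -0.024 to 0.11, Msmo1 from -0.065 to 0.45 and Lcn2 from -0.33 to 1.66. High-fat diet against chow in controls called 1306 genes, 779 without a filter on low counts and 2328 by limma-voom. High-fat against western diet called 500, 305 without the filter and 266 in a fit of only the compared groups. Western diet against chow called 311, 471 by DESeq2, 136 with only the compared groups and 184 with the replicate letter as a block. The knockout comparison called 2434, and 1569 with only the compared groups. The difference between genotypes called 0, 2 without the filter, 18 by DESeq2, 2 by limma-voom and 1 under the replicate block. The causes were not tested.

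Leaving out each library gave 711 to 1502 genes for high-fat against chow, 181 to 300 for western against chow, 243 to 535 for high-fat against western, 1433 to 2603 in knockouts and 0 to 3 for the difference between genotypes. The difference in total counts ran from -4617900 (without high-fat B) to -889360. Of 160 called named genes, 92 kept their call in every alternative that tested them, at most 21. The other 68 lost it at least once, 45 of them without high-fat liver C and 42 without high-fat liver D.

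Replicate letters are shared by the groups, but nothing ties animals of 1 letter together. Deviations of same-letter livers correlated at -0.14 to -0.014, and 0 of 5 high-fat livers correlated best with the chow liver of their letter, so the block is only an alternative. It gave 929 calls for high-fat against chow and 2372 in knockouts. Among 183 named genes 35 lost and 2 gained a call.

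Depth limits liver D of the high-fat group most, and most 1.5-fold changes were missed in simulated counts.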

Other observations

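Some fat cell transcripts stood out in high-fat liver A. Adipoq, the adipocyte hormone adiponectin, had 47 reads there against 0 to 4 in high-fat B to E and 0 to 5 in the chow livers. Plin1, the coat protein of adipocyte lipid droplets, had 37 reads against at most 4 elsewhere, Cfd (adipsin) 174 against at most 23, and Retn (resistin) 15 against at most 3. Lep had no read in liver A. Adrb3, the beta-3 adrenergic receptor, did not stand out there, with 162 reads against 43 to 217 in high-fat B to E and 83 to 117 on chow, and it made up most of the summed reads outside liver A. The 6 adipocyte markers summed to 435 reads in liver A, 55 to 225 in high-fat B to E and 93 to 138 on chow. Liver A was also the high-fat liver with the lowest levels of Creld2 and Hyou1. Whether these values are linked was not tested.

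For the lists that describe haemoglobin and secreted proteins, the called members stand beside a share of 9.46% called over all 13807 tested genes. Of 5 blood genes 1 rose, Alas2, the erythroid enzyme of haem synthesis, from 46.3 to 60.1 to 66.7 to 98.3 CPM (0.50 ± 0.12). Of 31 complement and coagulation genes F11 rose (0.61 ± 0.17) and Serpinc1, antithrombin, fell (-0.31 ± 0.091). Of 15 albumin and carrier genes 1 fell, Rbp4, the retinol carrier (-0.33 ± 0.10). F11 lost its call in 4, Serpinc1 in 9 and Rbp4 in 6 of 21 alternatives.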
